A study of Rattus norvegicus with 4 samples.

Results

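The Nek family kinases are described here in rat embryonic stem cells (ESCs) with and without a knockout of *Thop1*. The members were taken by gene symbol, *Nek1* to *Nek9*, and made up 9 of the 34773 genes in the deposited count table. The family was chosen on the measured values of this same comparison, since *Nek2* was already known to be among the genes far higher in the *Thop1*-KO cells. The differences of the members between genotypes are therefore given as a description. All 9 symbols were found, each with 1 gene identifier, and each was annotated as protein coding. *Nek5* had no count in any library, so 8 members were measured.

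The poly(A) RNA libraries came from 1 culture of DA-5-3GFP, a wild-type (WT) rat ESC line with a *Rex1*-GFP reporter of the naive pluripotent state, and from 3 *Thop1*-KO subclones (#1, #2 and #3). The subclones were made from that same reporter line with Cas9 and a puromycin-selected guide vector. *Thop1* encodes thimet oligopeptidase, a zinc metallopeptidase that cleaves short peptides, and the comparison asked what its loss changed in the transcriptome. The rat ESCs of the study were grown on feeder cells in medium with 2 kinase inhibitors and leukaemia inhibitory factor. The study describes DA-5-3 as diploid, but the design text submitted for these libraries has haploid cells. All 4 libraries share the reporter and the parental line. Each subclone is 1 clone, and the selection that the subclones went through cannot be told apart from the genotype. Neither can any difference of the single WT culture or library, and only the 3 subclones give an estimate of replicate spread.

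Counts on genes summed to between 15405499 (DA-5-3GFP) and 17936544 (#3), and 15028 genes passed the filter on low counts. Levels are given as CPM, counts scaled to the TMM-normalized library size, and levels of different genes are compared only as FPKM, which also divides by gene length. Across the 15028 tested genes, 13.8% were called different between genotypes, meaning a Benjamini-Hochberg adjusted p under 0.05 in the quasi-likelihood test of edgeR. These were 8.62% called higher and 5.17% called lower in the subclones. *Thop1* itself was at 110, 92.5 and 149 CPM in #1, #2 and #3 and at 370 CPM in DA-5-3GFP, a log2 fold change of -1.66 (SE 0.29). The stem cell marker *Pou5f1* was between 3889 and 4842 CPM in the subclones and at 4794 CPM in DA-5-3GFP. Of 8 listed fibroblast markers, 7 were in the table and 3 (*Dcn*, *Lum* and *Thy1*) were at 0 in every library. The summed level of the 7 was 322, 643 and 413 CPM in #1, #2 and #3 and 199 CPM in DA-5-3GFP. Of 6 primitive endoderm markers, the summed level was 7.39, 5.60 and 4.95 CPM against 2.89 CPM. None of the tested genes of these lists was called by edgeR (0 of 4 and 0 of 5, with 2 and 3 at an unadjusted p under 0.05), and DESeq2 called 1 fibroblast gene and 0 endoderm genes. By log2 fold change the largest difference of the fibroblast list was that of *Col3a1*, with 271, 1414 and 663 counts against 95 (adjusted p = 0.0863, edgeR, and called without #1 or without #2). Among the 5 tested endoderm genes, DA-5-3GFP lay below all 3 subclones in 4 and above all 3 in 1. Over all tested genes these shares were 38.1% and 37.6%. The median log2 fold change of the 5 was 1.73. *Dab2* had 8, 22 and 9 counts against 0 and *Sox17* 34, 37 and 47 against 10. The 1 lower gene was *Gata4*, with 3, 0 and 3 counts against 17 (*Sox17* and *Gata4* chosen after their values were seen). Of 8 stem cell marker identifiers tested, *Sall4* alone was called by edgeR, higher (log2 fold change 2.72, SE 0.37, adjusted p = 0.0102), and DESeq2 called 2 higher and 0 lower. The part of feeder or endoderm RNA in the differences below was not tested. In bulk RNA, fewer cells of a type and less RNA per cell cannot be told apart.

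NIMA-related kinases are serine/threonine kinases named after a kinase that fungal cells need to enter mitosis. *Nek2* acts at the centrosome, where it loosens the protein linker that holds the centrosomes together before the spindle forms. *Nek9* is activated in mitosis and in turn activates *Nek6* and *Nek7*, which act on the motor protein *Kif11* during spindle assembly. *Nek8* and *Nek1* are tied to the primary cilium, and *Nek7* also binds the inflammasome sensor *Nlrp3*.

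The promoters of the 3 members with the largest differences are shown as a description, and these members were picked by those differences. Any part of the promoters in the differences was not tested. Each run holds the 250 bases before the annotated start, read 5′ to 3′ on the strand of the gene from the RefSeq table for assembly GRCr8, whose coordinates are not those of the count table. Capitals mark matches on either strand to the CCAAT box (CCAAT), the cell cycle homology element (TTTGAA or TTCGAA), the GC box (GGGCGG) and the TATA box (TATAAA). *Nek2* lies on the plus strand at chr13:105936559-105936808, *Nek7* on the minus strand at chr13:52700824-52701073 and *Nek9* on the minus strand at chr6:110715587-110715836.
Nek2: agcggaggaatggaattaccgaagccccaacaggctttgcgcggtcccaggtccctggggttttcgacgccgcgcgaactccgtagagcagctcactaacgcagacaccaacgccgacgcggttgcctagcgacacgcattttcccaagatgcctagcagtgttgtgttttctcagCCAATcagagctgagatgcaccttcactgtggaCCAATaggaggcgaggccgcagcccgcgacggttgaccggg
Nek7: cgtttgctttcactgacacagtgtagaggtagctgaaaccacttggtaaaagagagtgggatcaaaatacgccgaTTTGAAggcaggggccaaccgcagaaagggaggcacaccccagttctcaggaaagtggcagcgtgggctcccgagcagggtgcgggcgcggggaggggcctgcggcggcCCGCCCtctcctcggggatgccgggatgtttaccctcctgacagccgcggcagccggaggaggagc
Nek9: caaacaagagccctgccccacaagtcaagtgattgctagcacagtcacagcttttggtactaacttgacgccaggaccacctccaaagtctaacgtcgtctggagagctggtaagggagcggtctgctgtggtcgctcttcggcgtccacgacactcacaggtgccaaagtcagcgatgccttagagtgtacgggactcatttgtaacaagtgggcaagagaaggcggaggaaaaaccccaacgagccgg
The *Nek2* window holds 2 CCAAT boxes, which begin 74 and 41 bases before the start, and no match to the other motifs. The *Nek7* window holds 1 cell cycle homology match, 175 bases before the start, and 1 GC box on the reverse strand, 66 bases before it. The *Nek9* window holds no match to any of the 4 motifs. Among all 33469 promoters of the same length, 34.0% hold a CCAAT box, 17.4% a cell cycle homology match, 30.5% a GC box and 12.9% a TATA box. GC content is 60% in *Nek2*, 63.2% in *Nek7* and 54.8% in *Nek9*, against a median of 51.2% over all promoters. CpG dinucleotides number 23, 17 and 13 in the same order (percentiles 87.7, 78.1 and 70.6), against a median of 5. In the other members the number is 14 (*Nek1*), 10 (*Nek3*), 26 (*Nek4*), 8 (*Nek5*), 28 (*Nek6*) and 11 (*Nek8*). Their GC content runs from 51.2% (*Nek3*) to 70.8% (*Nek6*). These matches describe letters only, and no binding was measured.

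Of the 8 members with counts, 3 passed the threshold as higher in the subclones (*Nek2*, *Nek7* and *Nek9*), 0 as lower, and 5 did not pass. Among all tested genes, 8.62% passed as higher and 5.17% as lower. By DESeq2 the counts were also 3 and 0, and 0 members were lower at an unadjusted p under 0.05. All 8 entered the test, but *Nek7* passed the low-count filter only through the subclones. DA-5-3GFP lay below all 3 subclones in 5 members, above all 3 in 1 and within the subclone range in 2. Over all tested genes it lay below them in 38.1% and above them in 37.6%. The median log2 fold change of the 8 members was 0.83, beside 0.06 for all tested genes. Since the family was chosen with *Nek2* known, nothing is read from these counts.

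**Figure D1:**
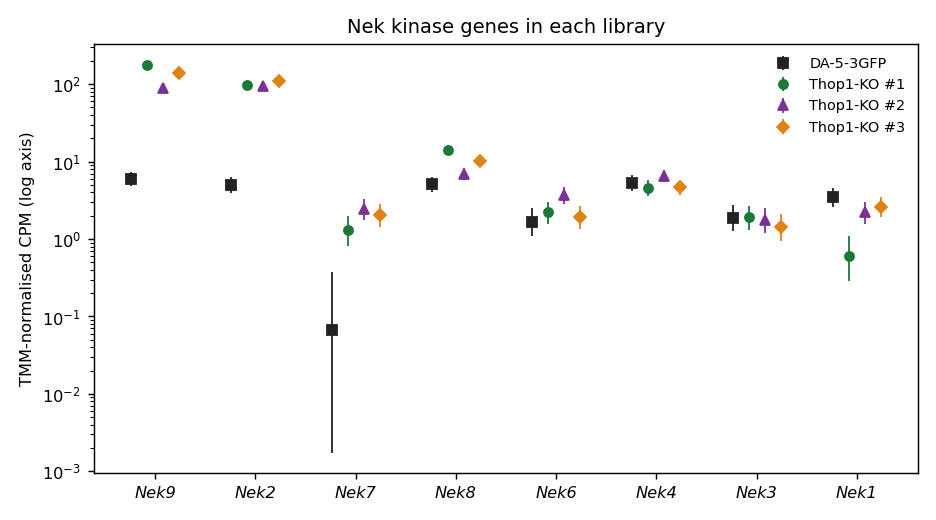
Normalized CPM (log axis) of the 8 *Nek* genes with counts in each library. *Thop1*-KO points are subclones #1, #2 and #3, the other point is the single DA-5-3GFP library, and vertical bars are 95% exact Poisson intervals of counting error; *Nek2* lies between 95.0 and 108 CPM in the subclones and at 5.05 CPM in DA-5-3GFP.

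*Nek2* (ENSRNOG00000004487), the centrosome linker kinase, spans positions 110511668 to 110522769 of chromosome 13 (plus strand) in the coordinates of the count table. Subclones #1, #2 and #3 gave 1615, 1680 and 1946 counts, and DA-5-3GFP gave 75, or 96.3, 95.0, 108 and 5.05 CPM. The subclones lay close together and far above DA-5-3GFP, and the groups did not overlap. The subclone mean was 99.9 ± 7.33 CPM (SD, n = 3), and the highest subclone was 1.14 times the lowest. The exact Poisson interval of the DA-5-3GFP value, at 95%, was 3.97 to 6.33 CPM. This and the other such intervals cover counting error only. The mean was 19.8-fold that of DA-5-3GFP, with single subclones between 18.8-fold and 21.5-fold. The log2 fold change was 4.30 (SE 0.33).

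*Nek9* (ENSRNOG00000058572), the mitotic kinase upstream of *Nek6* and *Nek7*, spans positions 109124330 to 109162267 of chromosome 6 (minus strand). The counts were 2992, 1598 and 2526 in the order #1, #2, #3, against 89 for DA-5-3GFP, or 178, 90.4, 141 and 5.99 CPM. Every subclone was above DA-5-3GFP, but unlike *Nek2* the subclones were spread, with #1 highest and #2 lowest. The subclone mean was 136 ± 44.2 CPM (SD, n = 3), and #1 was 1.97 times #2. The fold over DA-5-3GFP was 22.8, and it ranged from 15.1 to 29.8 by subclone. Its log2 fold change was 4.51 (SE 0.52).

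*Nek7* (ENSRNOG00000000657), which acts beside *Nek6* at the spindle and binds *Nlrp3*, spans positions 55488531 to 55561750 of chromosome 13 (minus strand). The subclones gave 22, 43 and 37 counts and DA-5-3GFP gave 1, or 1.31, 2.43, 2.06 and 0.0673 CPM. The groups did not overlap, but the gene was near the detection limit in DA-5-3GFP. From the summed 102 counts and the 1 count, the ratio of the subclones to DA-5-3GFP was 28.9, with a counting interval of 5.07 to 1153. Its call was lost when #3 was left out (adjusted p = 0.123, edgeR).

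*Nek6* (ENSRNOG00000010897), the close relative of *Nek7*, spans positions 22811927 to 22888598 of chromosome 3 (plus strand). Its levels were 2.21, 3.68 and 1.95 CPM in #1, #2 and #3 and 1.68 CPM in DA-5-3GFP, from 37, 65, 35 and 25 counts. DA-5-3GFP was the lowest library, but its counting interval of 1.09 to 2.48 CPM covered #1 and #3. The log2 fold change was 0.63 (SE 0.63), and *Nek6* was not called. *Nek6* shares 17494 bases with *Psmb7*, a proteasome subunit gene on the opposite strand with 3856 to 4609 counts over the subclones, against 7713 for DA-5-3GFP. *Psmb7* was called lower in the subclones (log2 fold change -1.09, SE 0.22, adjusted p = 0.0270, edgeR). Use of strand in the counting is not stated, so the *Nek6* counts are uncertain. No other member overlaps a listed gene.

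*Nek8* (ENSRNOG00000012866), a kinase of the inversin compartment of the cilium, spans positions 65425771 to 65437143 of chromosome 10 (minus strand). It was at 14.3, 6.90 and 10.1 CPM in #1, #2 and #3 and at 5.11 CPM in DA-5-3GFP, from 239, 122, 181 and 76 counts. All 3 subclones were above DA-5-3GFP, with #1 highest and #2 lowest, the same order as for *Nek9*. The log2 fold change of 1.02 (SE 0.51) did not pass the threshold, and it did pass when #2 was left out (adjusted p = 0.0248, edgeR). *Traf4*, an adaptor of the TRAF family, lies 968 bases beyond the 3′ end of *Nek8* on the same strand and was chosen for mention after its values were seen. *Traf4* had 4737, 2006 and 3246 counts over the subclones, against 1412 for DA-5-3GFP, and *Nek8* counts were 5.05%, 6.08%, 5.58% and 5.38% of these. On this strand *Nek8* is transcribed toward *Traf4*, and *Traf4* is transcribed away from *Nek8*. Whether reads of either gene entered the counts of the other was not tested.

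*Nek1* (ENSRNOG00000010418), a kinase of cilia and of the response to DNA damage, spans positions 32321010 to 32439421 of chromosome 16 (minus strand). It was the only measured member with DA-5-3GFP above all 3 subclones, at 3.50 CPM against 0.596, 2.21 and 2.62 CPM in #1, #2 and #3. The counts behind these values were 52 against 10, 39 and 47. Subclone #1 stood apart, with a counting interval of 0.286 to 1.10 CPM, and #3 was 4.39 times #1. The log2 fold change was -0.95 (SE 0.78), and *Nek1* was not called.

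*Nek3* (ENSRNOG00000012757) and *Nek4* (ENSRNOG00000017997) span positions 74785281 to 74806149 and 7035068 to 7075554 of chromosome 16, both on its plus strand. *Nek3* is known for a role in prolactin receptor signalling, and *Nek4* for roles in microtubule regulation and the response to DNA damage. *Nek3* was at 1.91, 1.75 and 1.45 CPM in #1, #2 and #3 and at 1.88 CPM in DA-5-3GFP, from 32, 31, 26 and 28 counts. *Nek4* was at 4.59, 6.56 and 4.67 CPM against 5.32 CPM, from 77, 116, 84 and 79 counts. In both genes DA-5-3GFP lay inside the range of the subclones. Their log2 fold changes were -0.15 (SE 0.58) and -0.01 (SE 0.43). *Nek5* (ENSRNOG00000048769) lies 4788 bases above *Nek3* on the same strand, from 74810938 to 74848113. It had 0 counts in all 4 libraries. The exact Poisson intervals at 95% reached 0.220, 0.209 and 0.205 CPM in #1, #2 and #3 and 0.248 CPM in DA-5-3GFP.

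The other NIMA-family genes of the rat are not members. *Nek11*, a kinase of the DNA damage checkpoint, had 9, 13 and 8 counts over the subclones, against 22 for DA-5-3GFP. Its log2 fold change was -1.36 (SE 0.77, adjusted p = 0.252 from edgeR, adjusted by Benjamini-Hochberg). *Nek10*, a kinase of multiciliated cells, had 1, 2 and 0 counts against 0 and was not tested.

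In FPKM, which allows the members to be ranked against each other, the subclones were dominated by *Nek2* and *Nek9*. *Nek2* was at 71.8, 70.4 and 79.2 FPKM in #1, #2 and #3 and at 3.74 FPKM in DA-5-3GFP. *Nek9* was at 61.6, 31.1 and 47.7 FPKM in the subclones and at 2.06 FPKM in DA-5-3GFP. The next member, *Nek8*, was at 5.40, 2.60 and 3.75 FPKM against 1.93 FPKM. By subclone mean the order was *Nek2* (73.8 ± 4.73), *Nek9* (46.8 ± 15.3), *Nek8* (3.92 ± 1.41), *Nek4* (1.82 ± 0.388), *Nek7* (1.73 ± 0.506), *Nek6* (1.09 ± 0.393), *Nek3* (0.986 ± 0.145) and *Nek1* (0.356 ± 0.209 FPKM, SD, n = 3 each), followed by *Nek5* at 0. The subclone ranges of *Nek4* and *Nek7*, of *Nek7* and *Nek6*, and of *Nek6* and *Nek3* overlapped, while the other neighbours in this order had separate ranges. In DA-5-3GFP the levels ran from 3.74 FPKM (*Nek2*) through *Nek9* (2.06), *Nek8* (1.93), *Nek4* (1.83), *Nek3* (1.09), *Nek6* (0.703) and *Nek1* (0.694) to *Nek7* (0.0603), with no spread since there was 1 library. *Nek7* thus stood last among the detected members in DA-5-3GFP and was the fifth by mean in the subclones.

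Summed over the 9 members, the level was 143.8, 111.5 and 136.2 FPKM in #1, #2 and #3 and 12.1 FPKM in DA-5-3GFP. *Nek2* and *Nek9* together made up 92.8%, 91.0% and 93.2% of this in the subclones and 47.9% in DA-5-3GFP. *Nek2* alone held 49.9%, 63.2% and 58.2% against 30.9%, and *Nek9* held 42.9%, 27.8% and 35.0% against 17.0%. The other 7 members summed to 10.34, 10.04 and 9.31 FPKM in the subclones and 6.31 FPKM in DA-5-3GFP. The balance of the 2 leading genes differed between subclones, with a *Nek2* to *Nek9* ratio in FPKM of 1.16, 2.27 and 1.66, and the ratio of 1.82 in DA-5-3GFP lay inside that range. Among all genes with a count, *Nek2* in FPKM was at percentile 91.3, 92.3 and 92.7 in the subclones and 52.3 in DA-5-3GFP. *Nek9* was at percentile 90.0, 84.6 and 88.6 against 41.9.

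**Figure D2:**
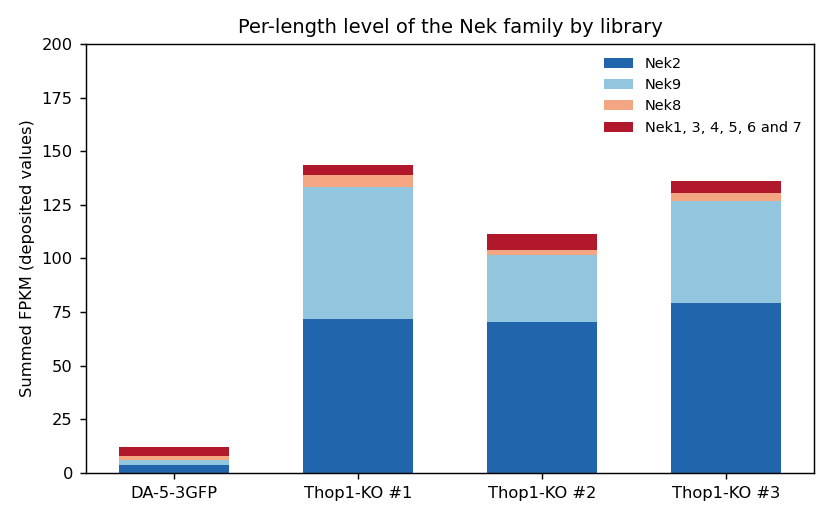
Summed FPKM of the 9 *Nek* genes in each library on a linear axis from 0, stacked as *Nek2*, *Nek9*, *Nek8* and the other 6 together, with 1 bar for each *Thop1*-KO subclone (#1, #2, #3) and 1 for DA-5-3GFP. The bars reach 143.8, 111.5 and 136.2 FPKM in the subclones and 12.1 FPKM in DA-5-3GFP, and *Nek2* and *Nek9* fill 91.0% to 93.2% of each subclone bar.

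None of the tested genes directly beside *Nek2*, *Nek9* or *Nek7* was called, where 13.8% of all tested genes were. Neighbours with 0 counts could not be tested. The nearest listed genes to *Nek2* are both lincRNAs. AABR07022162.1, 30184 bases below, had 32, 99 and 87 counts over the subclones, against 103 for DA-5-3GFP (log2 fold change -0.75, SE 0.61), and AABR07022162.2, 31251 bases above, had 0 counts in all 4 libraries. *Nek9* lies between *Zc2hc1c*, 4872 bases below, and *Tmed10*, 7473 bases above, both named here after their values were seen. *Zc2hc1c* had 40, 22 and 39 counts against 9 (adjusted p = 0.177), and *Tmed10*, a carrier of early secretory transport, had 2910, 2708 and 2811 against 3189 (adjusted p = 0.232, both from edgeR, adjusted by Benjamini-Hochberg). Both listed neighbours of *Nek7* were at 0 counts in every library.

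The genes whose pattern over the 4 libraries was most like that of *Nek2*, among 15027 others, were *Kif21b*, LOC100911356 and *Esrrb*. Likeness was the root mean square difference in log2 CPM after each gene was centred on its own mean, and it was 0.0499, 0.0734 and 0.0748. For this measure alone, log2 CPM was taken with a prior count of 2, which shrinks differences that rest on few counts. The values of LOC100911356 and *Nek7*, with few DA-5-3GFP counts, depend on that setting. *Kif21b*, a kinesin motor gene, had 631, 613 and 763 counts in #1, #2 and #3, against 29 for DA-5-3GFP. LOC100911356 had 72, 81 and 83 counts against 2, which is within the floor of 3 counts. It passed the low-count filter only through the subclones. Its log2 fold change in the edgeR fit was 4.99 (SE 0.71), beside 4.30 for *Nek2*. *Esrrb*, an orphan nuclear receptor of naive pluripotency, had 5537, 5064 and 5894 counts against 237. *Nek9* stood at rank 97 in this order with a difference of 0.347, and *Nek7* at rank 200 with 0.476. All these points share the same 4 libraries. In the 3 most similar genes DA-5-3GFP was low and the subclones were close together, which follows from their choice by likeness to *Nek2*.

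The known partners of the Nek kinases were counted from lists of the centrosome linker, the spindle and the cilium. Of the 30 partner genes tested, 2 were called higher and 0 lower, where 8.62% and 5.17% of all tested genes were. The median log2 fold change of the 30 was 0.17. By DESeq2, 4 were higher and 2 lower. In the linker list, 11 genes were tested and 1 was called by edgeR, while DESeq2 called 3 higher and 0 lower. The median log2 fold change was 0.53, and 4 genes had an unadjusted p under 0.05 in edgeR. These were all higher, namely *Lrrc45*, *Ninl* (log2 fold change 1.53), *Cep68* (1.15) and *Cep85* (0.76). *Ninl*, *Cep68* and *Cep85* were named after their values were seen. *Lrrc45*, which encodes a linker fibre protein, had 434, 478 and 505 counts over the subclones, against 82 for DA-5-3GFP. It rose by 2.29 on the log2 scale (SE 0.35, adjusted p = 0.0130, edgeR), and the call was lost without #3 (adjusted p = 0.0638). The 2 best known linker substrates of *Nek2* were not called, at -0.13 (SE 0.30) for *Cep250* and 0.59 (SE 0.28) for *Crocc* on the log2 scale.

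The spindle list held 11 tested genes, of which 1 was called higher and 0 lower, with a median log2 fold change of -0.28. DESeq2 called 1 higher and 2 lower, and 4 were at an unadjusted p under 0.05 in edgeR. Of these, *Bicd2* was higher and *Tpx2*, *Dynll1* and *Eml4* were lower (log2 fold change -0.95, -1.49 and -0.78). The lower genes were named after their values were seen. For this list and those below, the edgeR shares over all tested genes were 8.62% higher and 5.17% lower. *Bicd2*, a dynein adaptor, had 538, 564 and 499 counts over the subclones, against 153 for DA-5-3GFP. Its log2 fold change was 1.57 (SE 0.32, adjusted p = 0.0281, edgeR), and this call too was lost without #3 (adjusted p = 0.116). *Kif11*, the motor on which *Nek6* and *Nek7* act, had a log2 fold change of -0.33 (SE 0.44) and was not called. In the cilium list, 9 genes were tested and 0 were called by edgeR or by DESeq2, with 2 at an unadjusted p under 0.05. Of the 3 tested inflammasome genes around *Nek7*, 0 were called by edgeR or DESeq2 and 1 was under 0.05 unadjusted. That gene was *Nlrp3*, with 101, 128 and 157 counts against 51 (log2 fold change 1.09, SE 0.44, adjusted p = 0.136, edgeR).

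**Figure D3:**
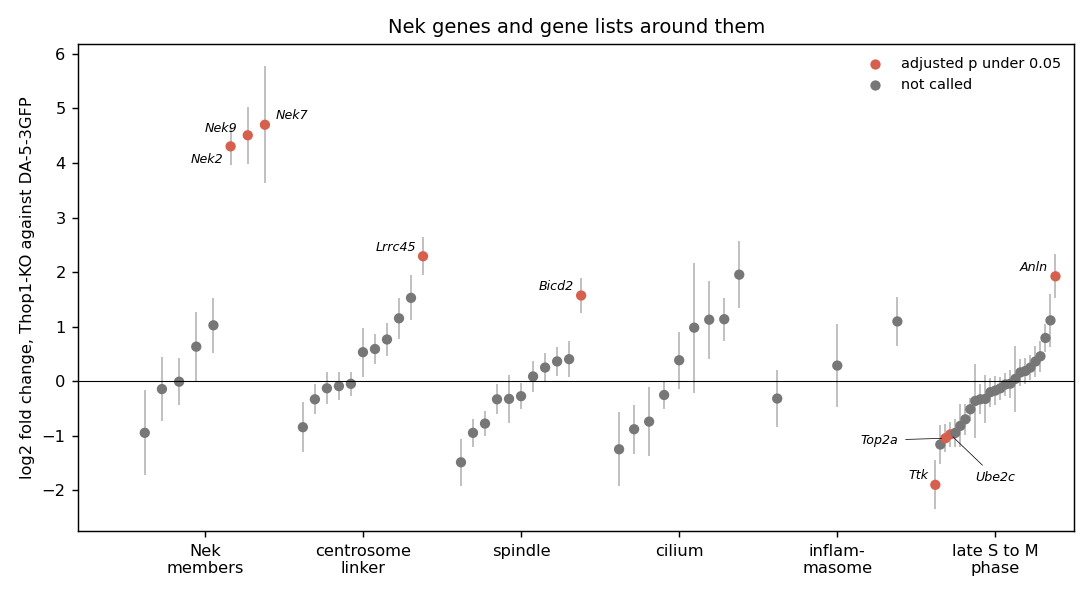
Log2 fold change of *Thop1*-KO against DA-5-3GFP for each tested gene of the Nek family and of the lists around it, with bars of 1 SE from the edgeR fit and coloured points for an adjusted p under 0.05. *Nek2* and *Nek9* lie at 4.30 and 4.51 and *Nek7* at 4.70 with only 1 DA-5-3GFP count behind it, while *Lrrc45* at 2.29 is the highest gene of the other lists shown.

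Genes whose RNA peaks from late S phase to mitosis, as that of *Nek2* is known to do in cycling cells, were counted as well. Of 25 tested, 1 was called higher and 3 lower by edgeR (1 and 5 by DESeq2), and the median log2 fold change was -0.17. Over all tested genes, edgeR called 8.62% higher and 5.17% lower. *Anln*, a scaffold of the contractile ring, had 298, 460 and 355 counts over the subclones, against 83 for DA-5-3GFP, a log2 fold change of 1.92 (SE 0.41, adjusted p = 0.0295, edgeR). *Top2a*, the mitotic DNA topoisomerase, fell by 1.05 on the log2 scale (SE 0.26, adjusted p = 0.0420, edgeR), from 2560 counts in DA-5-3GFP to 1340, 1277 and 1757. *Ttk*, a spindle checkpoint kinase, fell by 1.90 (SE 0.45, adjusted p = 0.0384) and *Ube2c*, an enzyme of the anaphase-promoting complex pathway, by 0.98 (SE 0.22, adjusted p = 0.0362). Without #3 none of these 4 kept its call in edgeR, with adjusted p-values between 0.0764 and 0.144. *Top2a* and *Ube2c* also lost it without #1 (adjusted p = 0.0588 and 0.0578, edgeR), and *Top2a* and *Ttk* with limma on log2 FPKM at either pseudocount. The other 21 genes of the list did not pass the edgeR test.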

How the data were processed

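Poly(A) RNA libraries of 1 DA-5-3GFP (WT) culture and 3 *Thop1*-KO subclones were grouped by the genotype in the labels. The reads were cleaned by the authors with the FASTX toolkit, and the submitters' processing notes name HISAT2 2.0.5 and featureCounts 1.5.0-p3. The authors deposited raw counts per gene and FPKM values, in which each deposited count was scaled by the length of its gene and by a single library factor. The genome build of the count table and any use of strand in counting are not given in the sources used here, so reads of overlapping genes could not be told apart.

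Counts were tested with edgeR 4.0.16 in R 4.3.3 (filterByExpr with a minimum count of 10, TMM, quasi-likelihood test, Benjamini-Hochberg adjustment over all 15028 tested genes). Log2 fold changes and SE come from that fit. The study's methods name DESeq2, which was an alternative here. WT has 1 library, so the p-values set the genotype difference against a spread estimated from the 3 subclones and moderated over genes. The spread between WT cultures was not measured. The smallest p of an exact permutation of 1 against 3 libraries is 0.25. The test was checked before use on simulated counts with known changes. These were drawn with the same spread in both genotypes, so the check does not cover the spread between WT cultures. No pair of libraries had counts that agree within sampling noise. Intervals of counts are exact Poisson intervals at 95%, and a count of up to 3 was the floor.

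The 11 alternatives were DESeq2 1.42.0, DESeq2 size factors, upper quartile scaling and library size only in edgeR, no filter, 10 counts in every library, limma 3.58.1 on log2 FPKM with a pseudocount of 1 or of 0.1, and leaving out each subclone. The members and the gene lists (centrosome linker, spindle, cilium, inflammasome, late S to M phase, stem cell, fibroblast and endoderm markers) were chosen with earlier results of these data known. The genes named are the members, *Thop1*, *Nek10*, *Nek11*, the listed neighbours of *Nek2*, the 3 tested genes most like *Nek2*, and from each list the called genes, or the gene of largest change where none was called. A gene of the cilium list is not reported here. Others were added where a sentence says so or as known partners of a member. Promoters came from RefSeq (GRCr8), in which all 9 members matched. Tables and plots were made with Python 3.11.15, pandas 2.3.3, numpy 2.4.6, scipy 1.17.1 and matplotlib 3.10.9.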

Additional observations from a re-analysis of the deposited data

How the results depend on the processing

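*Nek2* and *Nek9* were called higher in all 11 alternatives, with log2 fold changes from 3.98 to 4.37 and from 3.91 to 4.73. *Nek7* was called in 9 of the 10 alternatives it could enter, since it could not meet a filter of 10 counts in every library, with log2 fold changes from 1.35 (limma on log2(FPKM + 1)) to 4.92. Over single genes named in the text, 248 of 270 values kept their direction and their side of the threshold, 14 lost a call, 4 gained one and 4 changed sign. The sign changes were all those of *Nek4*, at -0.01 in the reported fit, which was 0.068 with library size only, 0.013 with no filter, and from -0.20 to 0.090 when a subclone was left out (above 0 without #1 and without #3). The count of called genes, 2072, ranged from 457 (without #3) to 5572 (without #2) when a subclone was left out. The 2 called partner genes became 6 with DESeq2, 4 with no filter and 1 with limma on log2(FPKM + 1). Leaving out a subclone gave 0 (without #3, with 5 at an unadjusted p under 0.05 in edgeR) to 12 (without #2) partner genes. The 4 called late S to M phase genes became 6 with DESeq2, 2 with limma at either pseudocount, and 0 (without #3, with 6 at an unadjusted p under 0.05 in edgeR) to 11 (without #2) when a subclone was left out. The causes were not tested. No paired analysis was possible because DA-5-3GFP has 1 library, whose label carries no replicate number shared with the subclones. Leaving out that library is not possible either, and members near 1 CPM are limited by counting error.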
